A study of Canis lupus familiaris with 30 samples.

Results

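The red cell membrane genes EPB41, GYPC and SLC4A1, together with the transcript LOC609402, were followed in peripheral blood mononuclear cells (PBMC) of dogs fed raw meat or kibble. The members were all non-control probes whose RefSeq transcript belongs to one of these 4 genes, which gave 6 probes among 43603. They stand for 4 of the 1353 genes to which the array's probes could be matched by symbol. LOC609402 had the probes A_11_P053366 and A_11_P190298, EPB41 had A_11_P103136 and A_11_P0000020068, GYPC had A_11_P0000021683 and SLC4A1 had A_11_P0000033928. Where a gene has 2 probes, the brighter one (named first) stands for it unless the other is mentioned. The genes were chosen by their log2 ratios over weeks and diets and by how these had been seen to move together array by array, so their differences and their movement together are a description, without a test.

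PBMC are the lymphocytes and monocytes that stay above a density medium when blood is spun, while most red cells and granulocytes sink. Adult dogs ate only the raw red meat diet, high in protein and fat (7 dogs per the labels), or only a kibble that contained carbohydrate (8 dogs), and PBMC were taken at weeks 0, 3, 6 and 9, week 0 being the start of the experiment. Pairs of samples labelled with Cy3 and Cy5 were compared on 30 two-colour Agilent arrays, which are named here by the Cy3 sample and then the Cy5 sample. Week 9 was set against week 0, and week 6 against week 3, on 4 arrays per diet, and meat against kibble on 3 arrays each in weeks 0 and 3 and on 4 each in weeks 6 and 9. No array joined weeks 0 and 9 with weeks 3 and 6, so levels of these sets of weeks are only placed side by side. Each group was read in 7 or 8 channels, the series text states 6 biological replicates, and which dog was on which array is not given, so p-values measure the spread between arrays.

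Red cells hold their shape through a protein skeleton under the membrane. SLC4A1 encodes band 3, the anion exchanger of the red cell membrane, which also anchors that skeleton. EPB41 encodes protein 4.1, which ties spectrin and actin to membrane proteins, and GYPC encodes glycophorin C, a membrane protein that protein 4.1 binds. Mature mammalian red cells have no nucleus, while the youngest circulating ones, the reticulocytes, still hold RNA. EPB41 and GYPC are also transcribed in white blood cells, whereas SLC4A1 is a defining gene of the erythroid line. LOC609402 has no descriptive name in the sources used here. The RefSeq gene table places it on chromosome 21 between LOC480784 and LOC485255, with HBE1, the epsilon-globin gene, next beyond LOC485255 and olfactory receptor genes on both sides. The same table places EPB41 on chromosome 2, SLC4A1 on chromosome 9 and GYPC on chromosome 19.

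The samples carried markers of their labelled cells. CD4 and CD8A of T cells, MS4A1 of B cells, and CTSS and CYBB of monocytes stood well above background in 60 of 60 channels. So did GP1BA and SELP of platelets and S100A8 and MMP9 of neutrophils. On an array, 20085 to 42703 probes passed this mark in Cy3 and 19416 to 43411 in Cy5. The lowest counts were on kibble 0/kibble 9 replicate 1 and the highest on meat 9/meat 0 replicate 1. Precision is limited by how many arrays there are.

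LOC609402, EPB41 and GYPC stood well above background in 60 of 60 channels, and SLC4A1 in 17. The median signal of LOC609402 ran from 8272 to 665798 fluorescence units, an 80.5-fold range, and that of its other probe covered a 104-fold range. EPB41 covered a 6.93-fold range and GYPC a 5.93-fold range, and no spot was saturated. The log2 ratios of LOC609402 scattered around the fitted group values with a residual SD of 1.51, above that of 99.96% of the 31691 probes kept, whose median was 0.16. The residual SD was 0.35 for EPB41, 0.22 for GYPC and 0.22 for SLC4A1.

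The normalised log2 level of LOC609402 varied widely within every group. At week 0 it ran from 15.61 over a median of 18.53 up to 18.68 on meat, and from 16.95 over 18.96 up to 19.46 on kibble. At week 3 it ran from 16.78 over 17.45 up to 18.39 on meat, and from 17.02 over 18.03 up to 18.97 on kibble. At week 6 it ran from 13.74 over 16.15 up to 17.86 on meat, and from 16.36 over 18.12 up to 19.23 on kibble. In all 3 of these weeks the diets overlapped. At week 9 it ran from 14.66 over 17.60 up to 18.44 on meat, and from 15.13 over 15.75 up to 18.13 on kibble, which overlapped too. Within weeks 0 and 9 the order of medians from low to high was kibble 9, meat 9, meat 0 and kibble 0, and within weeks 3 and 6 it was meat 6, meat 3, kibble 3 and kibble 6. Every neighbouring pair in both orders overlapped.

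EPB41 varied less. At week 0 its log2 level ran from 11.00 over 11.35 up to 11.79 on meat and from 11.07 over 11.25 up to 12.37 on kibble. At week 9 it ran from 10.60 over 10.89 up to 11.31 on meat and from 10.40 over 10.68 up to 10.96 on kibble. The meat channels of weeks 9 and 0 overlapped. The kibble channels did not, but how many of all probes lacked overlap there was not counted, so nothing is read from it. At weeks 3 and 6 its group medians lay between 10.47 and 10.71, and all 4 groups overlapped.

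The GYPC medians of weeks 0, 3, 6 and 9 were 8.79, 8.39, 8.57 and 8.51 on meat and 8.77, 8.23, 8.24 and 8.30 on kibble. The diets overlapped in every week. SLC4A1 medians ran from 6.27 (meat, week 3) to 6.85 (kibble, week 0), and only at week 0 were most channels well above background, 6 of 7 on meat and 5 of 7 on kibble.

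**Figure D1:**
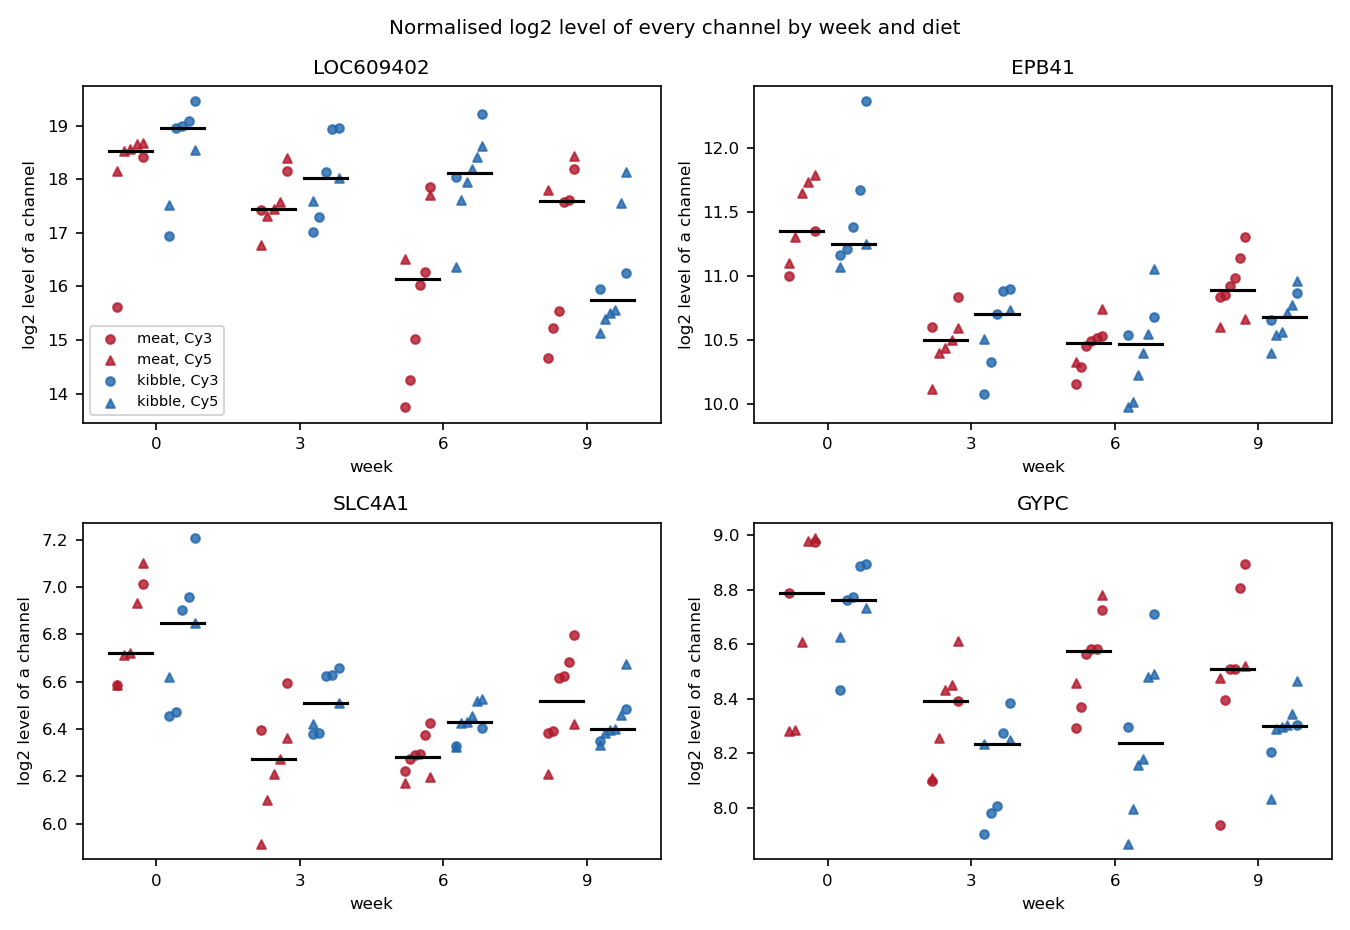
Normalised log2 level (vertical axis) of the brighter probe of each gene in every channel by week (horizontal axis), with meat left of kibble; circles are Cy3, triangles are Cy5 and bars are medians. EPB41 lies between 11.00 and 12.37 in all week 0 channels, and its highest week 9 channel is 11.31 on meat and 10.96 on kibble. Weeks 0 and 9 overlap on meat, and how many of all probes lacked overlap on kibble was not counted. LOC609402 covers a 17.3-fold range within meat week 6.

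LOC609402 was lower at week 9 than at week 0 on all 8 arrays that compared these weeks. On meat the 4 arrays read 31386, 19208, 24155 and 111914 units at week 9, against 662679, 665798, 562270 and 458770 units at week 0. Their normalised log2 ratios were -3.00, -4.00, -3.33 and -0.58. Replicate 4 thus showed a smaller difference than the other 3 arrays. The fitted difference was -2.53 ± 0.64 (SE), or 5.77-fold lower, and -3.06 without replicate 4. On kibble the 4 arrays read 74234, 69936, 53553 and 58252 units at week 9, against 485088, 481253, 399221 and 408957 units at week 0. Their log2 ratios were -3.40, -3.59, -3.60 and -4.33, which lay close together. The fitted difference was -3.93 ± 0.64, or 15.2-fold lower. By size this gene's probe ranked 2 of 31691 in each diet. The change on meat minus that on kibble was 1.40 ± 0.78, and leaving out 1 array at a time gave 0.68 (without meat 0/kibble 0 replicate 1) to 1.84.

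The dye order was opposite in the 2 diets. Week 9 was in Cy3 on every meat array and in Cy5 on every kibble array, and week 9 was the lower sample in both. The other LOC609402 probe gave -2.53 ± 0.65 on meat and -3.88 ± 0.65 on kibble.

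EPB41 was lower at week 9 on 3 of 4 meat arrays and 4 of 4 kibble arrays. On meat its log2 ratios were -0.81, -0.88, -0.47 and 0.20, replicate 4 again standing apart. The fitted difference was -0.72 ± 0.15, or 1.65-fold lower, and -0.91 without replicate 4. On kibble the ratios were -0.65, -1.27, -0.85 and -1.66, and the fitted difference was -0.87 ± 0.15, or 1.83-fold lower. The other EPB41 probe gave -0.54 ± 0.12 on meat and -0.59 ± 0.12 on kibble. On kibble its highest level was 10.46 at week 9 and its lowest was 10.52 at week 0. How many of all probes lacked overlap there was not counted, so nothing is read from this either.

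GYPC was lower at week 9 on all 8 arrays. Its log2 ratios were -0.35, -0.21, -0.47 and -0.10 on meat, replicate 4 again being the smallest. On kibble they were -0.40, -0.30, -0.60 and -0.43. The fitted differences were -0.25 ± 0.10 on meat and -0.47 ± 0.10 on kibble, that is 1.19-fold and 1.38-fold lower.

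SLC4A1 was also lower at week 9 on all 8 arrays, close to background. It stood well above background in 2 of 8 channels at week 9, against 6 of 7 at week 0, on meat, and in 2 of 8 at week 9, against 5 of 7 at week 0, on kibble. The meat counts include both channels of meat 9/meat 0 replicate 1, where 42703 probes in Cy3 and 43411 in Cy5 passed this mark. SLC4A1 signals there were 226.5 units at week 9 and 460 units at week 0. Its log2 ratios were -0.14, -0.33, -0.49 and -0.03 on meat and -0.07, -0.63, -0.23 and -0.83 on kibble. The fitted differences were -0.36 ± 0.09 on meat and -0.33 ± 0.09 on kibble. These include an offset of 50 units added to every signal, which shrinks the ratios of dim probes. With the scanner software's processed signals, which were used without that offset, they were -1.04 on meat and -1.43 on kibble.

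In limma 5 of 6 member probes were past an adjusted p of 0.05 on meat, all lower at week 9, where 8.27% of all probes were past it in either direction and 4.2% were lower. On kibble 6 of 6 were, all lower, where 15.1% of all probes were and 9.35% were lower. The rule of choice used these contrasts, so nothing is read from these counts.

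Between weeks 3 and 6 the ratios of LOC609402 were spread on both sides of 0. On meat, week 6 over week 3 gave -2.12, -1.42, 0.54 and -2.56, with a fitted difference of -1.50 ± 0.64. On kibble it gave 0.94, -0.53, 0.89 and -2.58, with a fitted difference of -0.21 ± 0.64, which was 0.42 without replicate 4 and -0.54 without meat 3/kibble 3 replicate 1. The change on meat minus that on kibble was -1.30 ± 0.78, and leaving out 1 array at a time gave -1.76 to -0.64 (without meat 3/kibble 3 replicate 1). EPB41 differed by -0.19 ± 0.15 on meat and -0.20 ± 0.15 on kibble, and GYPC by 0.09 ± 0.10 on meat and 0.03 ± 0.10 on kibble.

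SLC4A1 was not well above background in any meat channel of weeks 3 and 6, so no fold is given there. On kibble it was so in 0 of 8 channels at week 6, against 2 of 7 at week 3, so no fold is given there either. In limma 0 of 6 member probes passed on either diet, with 2 on meat and 0 on kibble at an unadjusted p under 0.05. Of all probes 2.18% passed the adjusted threshold on meat and 0.104% on kibble. As the rule of choice used these contrasts too, nothing is read from these counts.

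**Figure D2:**
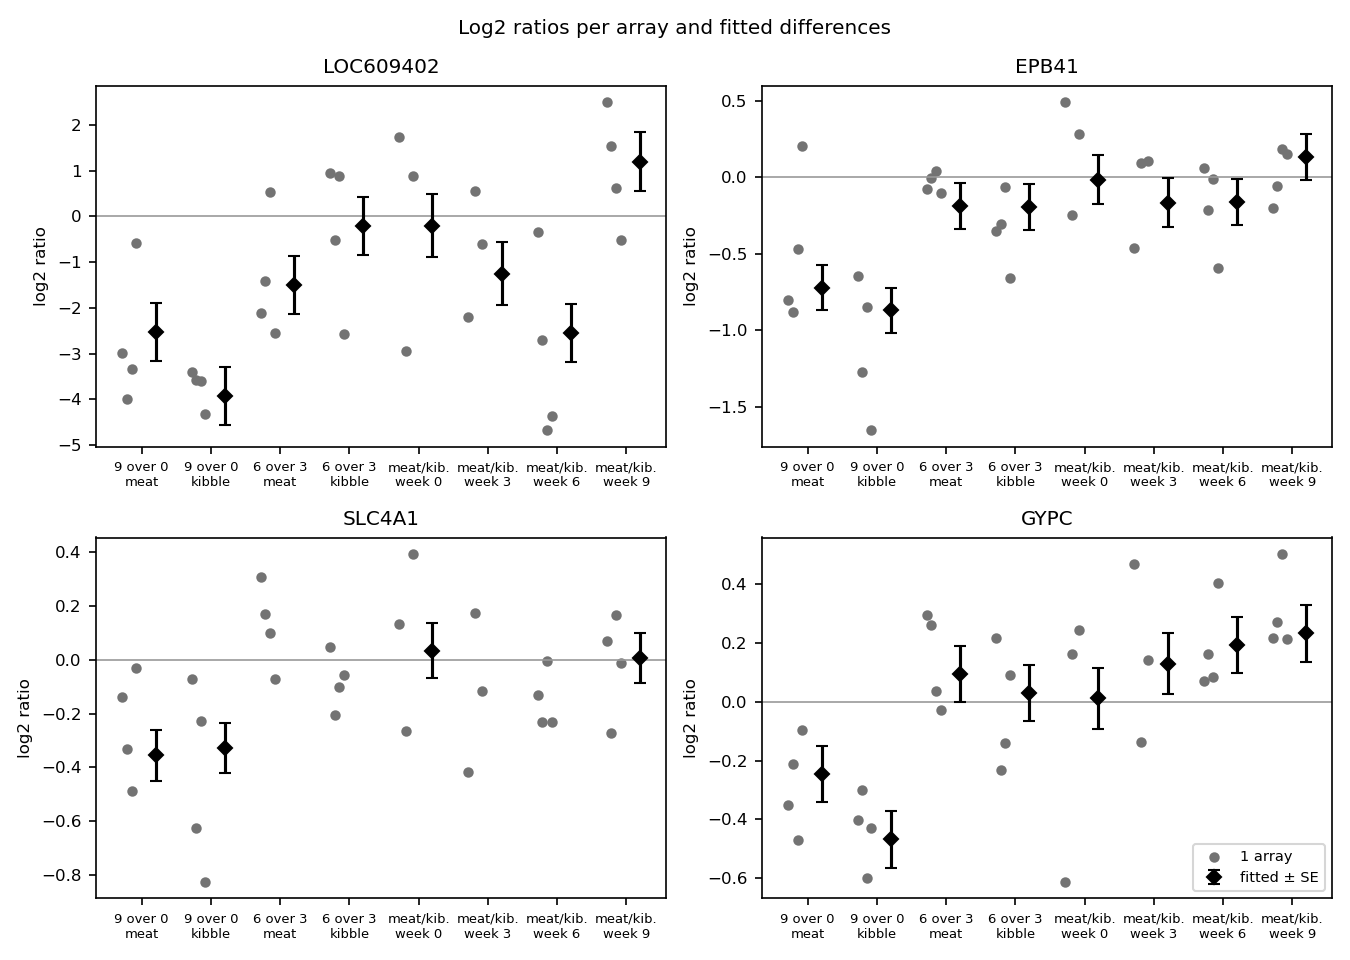
Log2 ratio (vertical axes, scaled per gene) of the brighter probe of each gene on every array (grey points) and the fitted difference with its SE (black diamonds), by comparison along the horizontal axis, with the later week or meat on top of each ratio. For LOC609402 all 8 arrays of week 9 over week 0 and all 4 arrays of meat over kibble at week 6 lie below 0; SLC4A1 has no fitted value where a group was never well above background.

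At week 6 LOC609402 was lower on meat than on kibble on 4 of 4 arrays by normalised ratio. On kibble 6/meat 6 replicate 1 the signal before normalisation was higher on meat, so the sign there came with the normalisation. On the 2 arrays with meat in Cy3 the signals were 8272 and 13187 units on meat, against 523042 and 592918 units on kibble. On the 2 arrays with meat in Cy5 they were 345288 and 170972 units on meat, against 144673 and 278283 units on kibble. The normalised log2 ratios of meat over kibble were -4.68 and -4.37 with meat in Cy3, and -0.34 and -2.71 with meat in Cy5. The fitted difference was -2.55 ± 0.64, or 5.87-fold lower.

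At week 9 LOC609402 was higher on meat on 3 of 4 arrays by normalised ratio. On 1 of them, meat 9/kibble 9 replicate 1, the signal before normalisation was 223881 units on meat, against 308048 units on kibble. The log2 ratios of meat over kibble were 0.63 and -0.53 with meat in Cy3, and 2.49 and 1.54 with meat in Cy5. The fitted difference was 1.20 ± 0.64. At weeks 0, 6 and 9 the mean ratio was lower with meat in Cy3 (-1.02, -4.53 and 0.05) than with meat in Cy5 (1.74, -1.52 and 2.02), and at week 3 it was -0.03 with meat in Cy3 and -2.19 with meat in Cy5. The probe's dye term over all arrays was 0.36. Arrays of opposite dye order may hold different dogs, so dye and sample cannot be told apart within a week.

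At weeks 0 and 3 the ratios of LOC609402 lay on both sides of 0. At week 0 they were 1.74, -2.94 and 0.89, with a fitted difference of -0.20 ± 0.69. It was 0.68 without meat 0/kibble 0 replicate 1 and -0.74 without meat 0/kibble 0 replicate 2. At week 3 they were -2.19, 0.55 and -0.60, with a fitted difference of -1.26 ± 0.69, which was -2.06 without meat 3/kibble 3 replicate 1. Each week's diet arrays shared 1 slide with no other array, so week and slide cannot be told apart among them.

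GYPC was higher on meat on all 8 arrays of weeks 6 and 9. At week 6 its ratios were 0.07, 0.16, 0.09 and 0.40, with a fitted difference of 0.19 ± 0.10. At week 9 they were 0.22, 0.27, 0.50 and 0.21, with a fitted difference of 0.23 ± 0.10. At week 0 it was 0.01 ± 0.10 and at week 3 0.13 ± 0.10, with arrays on both sides of 0. EPB41 had arrays on both sides of 0 in every week. Its fitted differences were -0.02 ± 0.16 at week 0 and 0.13 ± 0.15 at week 9, with -0.17 ± 0.16 (week 3) and -0.16 ± 0.15 (week 6) between them.

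SLC4A1 differed between the diets by 0.03 ± 0.10 at week 0 and 0.01 ± 0.09 at week 9. At week 3 it was well above background in 0 of 7 channels on meat, against 2 of 7 on kibble, so no fold is given. At week 6 it was well above background in 0 of 8 channels on either diet.

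In limma the 2 LOC609402 probes passed at week 6, both lower on meat. These 2 probes read the same transcript and had r = 0.999 with each other. Of all probes 6.59% passed at week 6 in either direction and 3.72% were lower. At weeks 0, 3 and 9 limma called 0 of 6 member probes, with 0, 0 and 1 at an unadjusted p under 0.05. Of all probes 0.312% passed at week 0, 6.09% at week 3 and 0.524% at week 9.

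Array by array, the ratios of LOC609402 went with those of EPB41 and SLC4A1 more closely than with those of GYPC. Each ratio was turned so that week 9, week 6 or meat is on top, and the 30 arrays share dogs and samples. Between LOC609402 and EPB41 Pearson's r was 0.68 and Spearman's rho 0.68. With the other EPB41 probe r was 0.75. Between LOC609402 and SLC4A1 r was 0.56 (rho 0.57), and between SLC4A1 and EPB41 it was 0.77 (rho 0.69). For comparison, the 2 probes of LOC609402 had r = 0.999 with each other and the 2 of EPB41 had 0.92, while the median r of all probes with LOC609402 was -0.0053. Leaving out the 2 arrays farthest from the median of LOC609402 gave 0.68 with EPB41 and 0.54 with SLC4A1.

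The residuals around the fitted group values hold no difference between groups, and over them r was 0.68 for LOC609402 with EPB41, 0.56 with SLC4A1 and -0.26 with GYPC. In the 15 arrays of weeks 0 and 9, r was 0.81 with EPB41, 0.72 with SLC4A1 and 0.58 with GYPC. In the 15 arrays of weeks 3 and 6 it was 0.40 with EPB41, 0.73 with the other EPB41 probe, 0.26 with SLC4A1 and -0.47 with GYPC. Thus the 2 EPB41 probes gave different values in weeks 3 and 6.

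GYPC took opposite sides in the time and diet arrays. Its r with EPB41 was 0.61 over the 16 time arrays and -0.60 over the 14 diet arrays, and 0.40 over all 30. Its r with SLC4A1 was 0.74 over the time arrays and -0.33 over the diet arrays. Under median centring in place of loess, r of LOC609402 was 0.82 with EPB41 and -0.014 with SLC4A1, and that of SLC4A1 with EPB41 was -0.10. The values for the dim SLC4A1 probe therefore depended on the normalisation within arrays. With scaling between arrays r of LOC609402 was 0.44 with EPB41, 0.72 with the other EPB41 probe and 0.32 with SLC4A1. That of SLC4A1 with EPB41 was then 0.68. The value for LOC609402 with the brighter EPB41 probe thus depended on the normalisation too.

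**Figure D3:**
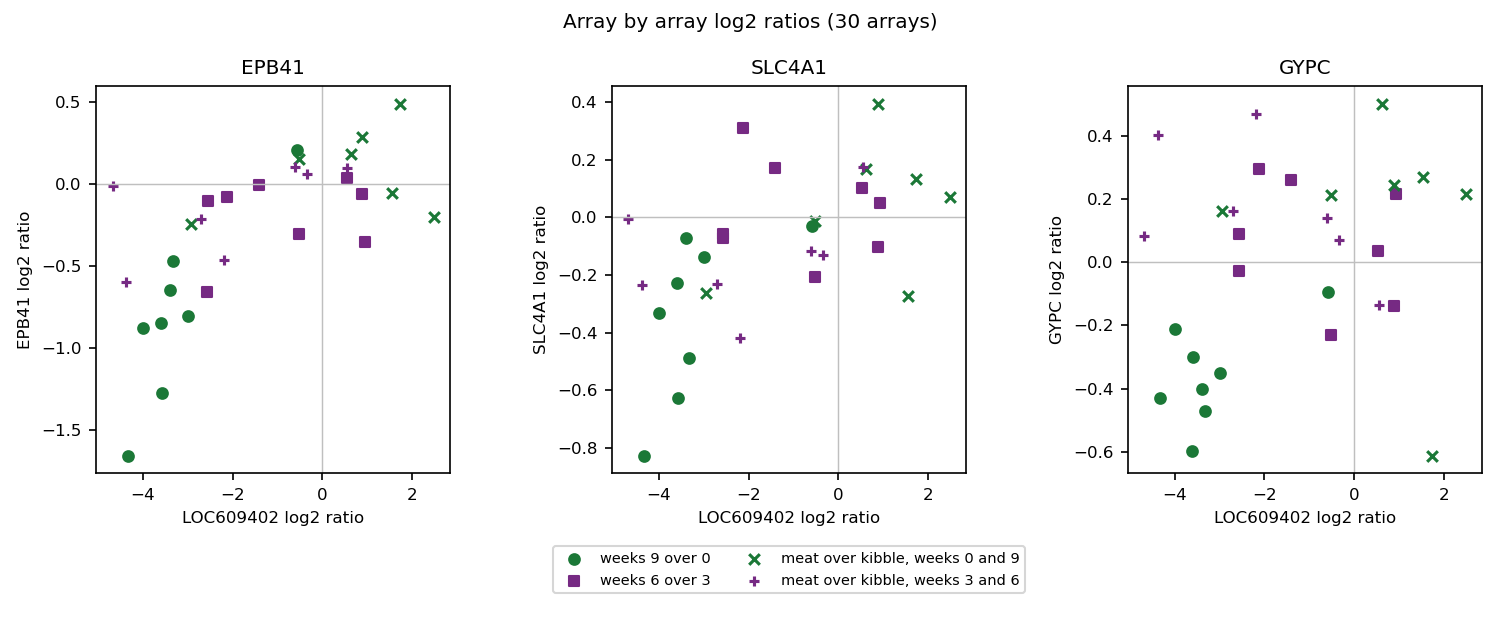
Log2 ratio of EPB41, SLC4A1 and GYPC (vertical axes) against that of LOC609402 (horizontal axes) on each of the 30 arrays, marked by the kind of comparison. All 8 arrays of week 9 over week 0 lie left of 0, and below 0 for each gene other than meat 9/meat 0 replicate 4 for EPB41 (0.20), while for SLC4A1 some lie close to 0 (highest -0.03), and in weeks 3 and 6 the GYPC points slope downwards (r = -0.47).

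The genes most like each member were those with the highest r over the 30 arrays among 1087 named genes. For LOC609402 they were LEP (r = 0.77), B3GAT2 (0.76), PDE6G (0.76), KDM5C (0.75) and OPN1LW (0.73). For EPB41 they were ADRB1 (0.90), MYH7 (0.90), INS (0.87), B3GAT2 (0.87) and VLDLR (0.86). For SLC4A1 they included INS (0.87), ADRB1 (0.85), PIM1 (0.85) and MYH7 (0.84). LEP (leptin), INS (insulin), MYH7 (a myosin heavy chain of heart and slow muscle) and OPN1LW (a cone opsin) are best known from tissues other than blood. Their probes stood well above background in 60, 60, 52 and 40 of 60 channels, in that order. At week 9 over week 0 MYH7 differed by -1.63 on meat and -2.19 on kibble, INS by -0.97 and -0.99, and LEP by -0.48 and -0.62. Whether these probes read their own transcripts was not tested.

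GYPC had another set of likest genes. They were SLAMF1 (r = 0.77), PSMB7 (0.77), P2RX7 (0.76), PSMB3 (0.75) and OTUB1 (0.75). SLAMF1 is a lymphocyte receptor, P2RX7 an ATP-gated channel of immune cells, PSMB7 and PSMB3 are proteasome subunits and OTUB1 is a deubiquitinase. None of them was among the 5 genes most like another member.

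Other red cell genes were read from 4 lists, of which 18 of 106 names were measured. These were 8 of 32 for membrane and skeleton, 2 of 27 for haemoglobin and haem synthesis, 1 of 12 for erythroid transcription and signalling, and 7 of 35 for enzymes and maturation. The 2 of the haemoglobin list were TFRC and FTL. Its other names, among them every haemoglobin gene on that list, had no probe matched by symbol. Whether probes under other names read haemoglobin RNA was not tested. From week 0 to week 9, 2 of the 18 fell and 1 rose on meat, and 3 fell and 2 rose on kibble. The medians over the 18 were 0.06 on meat and 0.10 on kibble, against 0.0044 and -0.0018 for all probes. Of all probes 4.2% fell on meat and 8.27% passed in either direction, and on kibble 9.35% fell and 15.1% passed.

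RHCE, an Rh blood group protein of the red cell membrane, fell on both diets. Its log2 ratios of week 9 over week 0 were -0.59, -0.83, -1.04 and -0.0046 on meat, the last being replicate 4, and -0.35, -0.69, -0.88 and -1.57 on kibble. The fitted differences were -0.70 ± 0.18 on meat (limma adjusted p = 0.0183) and -0.79 ± 0.18 on kibble (limma adjusted p = 0.00446). GPX1, a glutathione peroxidase found in red cells and many other cells, also fell on both. It differed by -0.44 ± 0.12 on meat (limma adjusted p = 0.0238, lower on 3 of 4 arrays) and by -0.59 ± 0.12 on kibble (limma adjusted p = 0.00164, 4 of 4 arrays).

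YBX3, a nucleic acid binding protein, rose on meat by 0.35 ± 0.10 (limma adjusted p = 0.0304, higher on 3 of 4 arrays) and on kibble by 0.33 ± 0.10 (limma adjusted p = 0.0263, 4 of 4 arrays), although median centring gave -0.050 on kibble. Its calls were kept by 34 of 45 alternative fits on meat and 38 of 45 on kibble, and with the mean over its probes neither was kept. STOM, the membrane protein stomatin, rose on kibble by 0.69 ± 0.23 (limma adjusted p = 0.0463, 4 of 4 arrays), a call that 21 of 45 alternative fits kept. On meat STOM differed by 0.66 ± 0.23 (limma adjusted p = 0.0797, higher on 4 of 4 arrays). RHCE and GPX1 were the list genes with the highest r with LOC609402 over the 30 arrays, at 0.65 and 0.64. In weeks 0 and 9 alone these were 0.85 and 0.81. RHAG of the membrane list and CA1 of the enzyme list had r = 0.10 and 0.16 over the 30 arrays. In weeks 0 and 9 alone they had -0.29 and -0.24. STOM and YBX3 had r = -0.32 and -0.34 over the 30 arrays.

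**Figure D4:**
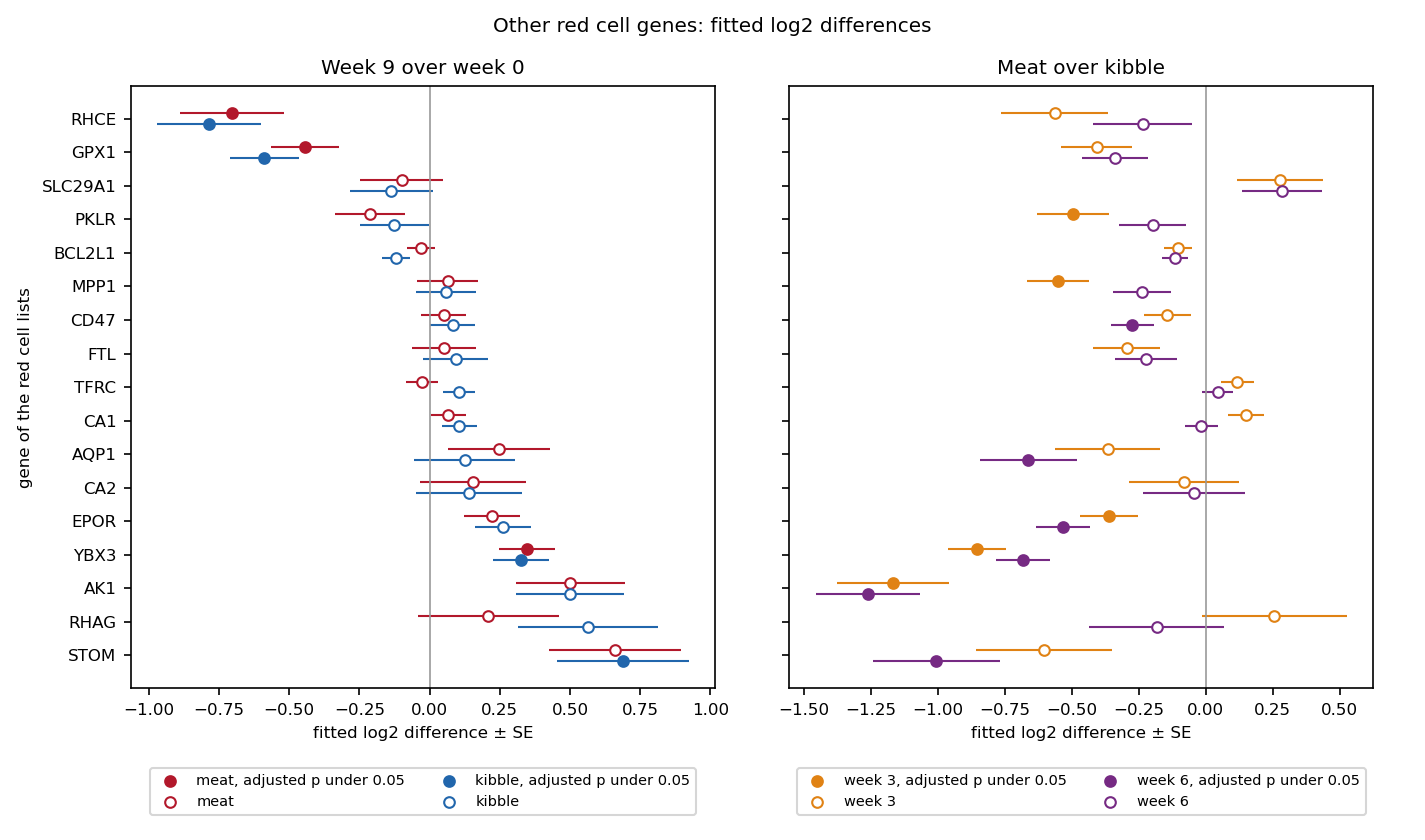
Fitted log2 difference with its SE (horizontal axes) of red cell list genes (vertical axis), for week 9 over week 0 on each diet (left panel) and meat over kibble at weeks 3 and 6 (right panel); filled points have a limma adjusted p under 0.05. RHCE and GPX1 lie lowest in the left panel, with RHCE at -0.70 on meat and -0.79 on kibble, and all filled points of the right panel lie below 0.

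Between the diets 6 of the 18 list genes were lower on meat at week 3 and 6 at week 6, and 0 were higher by the limma test in either week. Of all probes 3.82% were lower on meat at week 3 (6.09% in either direction) and 3.72% at week 6 (6.59%). At week 3 these included AK1 (-1.17 ± 0.21), YBX3 (-0.86 ± 0.11), MPP1 (-0.55 ± 0.12), PKLR (-0.50 ± 0.13) and EPOR (-0.36 ± 0.11). At week 6 they were AK1 (-1.26 ± 0.19), STOM (-1.01 ± 0.24), YBX3 (-0.68 ± 0.10), AQP1 (-0.66 ± 0.18), EPOR (-0.53 ± 0.10) and CD47 (-0.28 ± 0.08). EPOR at week 3 and CD47 at week 6, the smallest of each set, were named after their values were seen. AK1 is an adenylate kinase of red cells, muscle and other tissues, MPP1 a scaffold that joins protein 4.1 and glycophorin C, PKLR the pyruvate kinase of liver and red cells, AQP1 a water channel, EPOR the erythropoietin receptor and CD47 a widely expressed surface protein that restrains phagocytosis.

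AK1 was lower on meat on all 7 arrays of these weeks, with a limma adjusted p of 0.00276 at week 3 and 0.00101 at week 6. In both weeks 45 of 45 alternative fits kept its call. AK1 was also lower on meat on 3 of 3 arrays at week 0 (-0.70 ± 0.21, limma adjusted p = 0.188) and 4 of 4 at week 9 (-0.70 ± 0.19, limma adjusted p = 0.11), where it did not pass. YBX3 differed by -0.36 ± 0.11 at week 0 (limma adjusted p = 0.183, lower on 2 of 3 arrays) and -0.34 ± 0.10 at week 9 (limma adjusted p = 0.132, 4 of 4 arrays). The week 3 calls of PKLR, MPP1 and EPOR were kept by 39, 42 and 27 of 45. The week 6 calls of STOM, AQP1, EPOR and CD47 were kept by 42, 40, 44 and 34 of 45, and without kibble 6/meat 6 replicate 1 the limma adjusted p was 0.171 for STOM and 0.27 for AQP1. AK1 and EPOR had r = -0.40 and -0.37 with LOC609402 over the 30 arrays. The medians over the 18 genes were -0.36 at week 3 and -0.24 at week 6. At weeks 0 and 9 limma called 0 of 18, with 3 at an unadjusted p under 0.05 in each week. From week 3 to week 6 it called 0 of 18 on either diet, with 5 on meat and 2 on kibble at that unadjusted p.

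Markers of other cells differed in the same comparisons. Of the platelet markers 4 of 12 were measured, and 2 of them, GP1BA and SELP, rose from week 0 to week 9 on both diets, the direction opposite to that of LOC609402. The platelet medians were 0.85 on meat and 0.88 on kibble. The mean log2 level of the 4 ran from 11.36 to 12.03 at week 9, against 10.41 to 11.67 at week 0, on meat, and from 11.76 to 13.35 at week 9, against 11.06 to 11.63 at week 0, on kibble. Of the monocyte markers 4 of 10 were measured, and CTSS, a lysosomal protease, rose on both diets, by 0.53 ± 0.14 on meat (limma adjusted p = 0.022) and 0.44 ± 0.14 on kibble (limma adjusted p = 0.0356).

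Of the neutrophil markers 5 of 12 were measured, and from week 0 to week 9 their medians were -0.19 on meat and -0.23 on kibble, where 1 (ELANE, a granule protease) fell. Their mean log2 level ran from 10.42 to 11.58 at week 9, against 10.89 to 11.56 at week 0, on meat, and from 10.82 to 12.71 at week 9, against 11.12 to 13.10 at week 0, on kibble. Of the T cell markers 3 of 7 were measured. On meat 2 of the 3 lay above 0, with a median of 0.02, while CD4 fell by 0.90 (SE 0.27, limma adjusted p = 0.0411). On kibble 1 of the 3 lay above 0, with a median of -0.18, and 0 passed. The 1 measured B cell marker of 6, MS4A1, did not pass.

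At week 6, where LOC609402 was lower on meat, so were all 4 platelet markers, with a median of -1.32, as well as 1 of 5 neutrophil markers (CAMP, an antimicrobial peptide) and 1 of 4 monocyte markers (CYBB, the NADPH oxidase subunit). The mean platelet level ran from 10.35 to 11.58 on meat, against 11.72 to 12.97 on kibble. The neutrophil level ran from 10.19 to 11.55 on meat, against 10.14 to 12.65 on kibble. At week 3, 1 platelet, 3 neutrophil, 4 monocyte and 1 T cell marker were lower on meat. At week 9, where LOC609402 lay on the higher side on meat, the platelet median was -0.53 with 0 of 4 past the limma threshold and 3 at an unadjusted p under 0.05, while 1 of 5 neutrophil markers, CAMP, differed by -2.08 (meat over kibble, SE 0.44, limma adjusted p = 0.0245, 4 of 4 arrays). At week 0, 1 neutrophil marker, ELANE, was lower on meat. ELANE and CAMP were named after their values were seen. No marker was at 0: each stood well above background in 60 of 60 channels, other than ELANE in 52. The part of these markers in the members' differences was not tested. In bulk samples fewer cells of a type and less RNA per cell cannot be told apart.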

How the data were processed

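PBMC RNA (200 ng per sample, per the labels) of dogs on 2 diets was compared on 30 two-colour arrays. The deposited scanner files hold the median fluorescence intensity of each spot and of its local background, from Agilent Feature Extraction 10.10.1.1 per the submitters' processing notes; flags for background, saturation and outliers, and a log10 ratio of Cy5 over Cy3 processed signals, come from the same software per the file headers. The authors also deposited normalised log2 ratios. limma is named in the submitters' processing notes, the steps are not given in the sources used here, and these ratios correlated at 0.858 to 0.995 with those computed here, as Cy5 over Cy3, so they served as an alternative.

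Intensities were background-corrected by normexp (offset 50), normalised by loess within arrays with controls and flagged spots at weight 0, and averaged per probe (limma 3.58.1, R 4.3.3). Of 43603 probes, 31691 stood well above background in at least 7 of 60 channels. One limma fit over 30 arrays had a term per diet and week and a probe dye term (23 residual df). Adjusted p-values are Benjamini-Hochberg over all 31691 probes, two-sided, threshold 0.05. Levels are log2 values after loess and Aquantile. The fit was tested on simulated data.

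The members and lists were chosen with earlier results of these data known. Named list genes were those past the threshold, at most the 5 largest per direction and comparison; the 5 likest genes per member were named by r, and the 2 brightest markers per list. Of the genes these rules name, 2 are not reported here, though counts include them. Gene symbols come from the RefSeq gene table of assembly UU_Cfam_GSD_1.0, while the array was annotated on CanFam3.1, so no coordinates are given. Alternatives changed background, normalisation, filter, dye term, slide, replicate block, moderation, weights, probes and arrays. Replicate numbers were not used as pairs in the main fit, and whether they pair the samples was not settled.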

Additional observations from a re-analysis of the deposited data

Results flagged for a closer look

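Of 80 groups of array ratios or channel levels, 4 held a value far from the rest of its group, and chance alone flags about 1 group in 20. The 4 were all groups of channel levels, and both LOC609402 flags fell on the same channel. LOC609402 had a log2 level of 15.61 in the Cy3 channel of meat 0/kibble 0 replicate 1, while the other meat channels of week 0 lay between 18.16 and 18.68. Its other probe had 15.41 in the same channel, against 18.01 to 18.56 in the others. EPB41 (probe A_11_P0000020068) had 11.62 in the Cy3 channel of kibble 0/kibble 9 replicate 4, while the other kibble channels of week 0 lay between 10.52 and 10.93. SLC4A1 had 6.68 in the Cy5 channel of kibble 0/kibble 9 replicate 3, while the other kibble channels of week 9 lay between 6.33 and 6.48. The cause of these values was not tested.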

How the results depend on the processing

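The number of probes past the threshold depended on the processing. Main counts were 99, 1929, 2089 and 166 for meat over kibble at weeks 0, 3, 6 and 9, 2621 on meat and 4786 on kibble for week 9 over 0, and 692 on meat and 33 on kibble for week 6 over 3. At week 0 the count was 24 with Feature Extraction signals, 57 without a dye term, 57 with the loop's arrays alone, 57 with the replicate block, 43 with median centring, 35 with scaling, 18 with slide as a block and 60 with the deposited ratios. At week 3 it was 167 with median centring, 1265 with the replicate block and 508 with slide. At week 6 it was 3989 with array weights, 477 with median centring, 3244 with scaling and 584 with slide. At week 9 it was 250 with array weights, 61 with the loop alone, 14 with median centring, 110 with the replicate block, 79 with scaling and 62 with slide. For week 9 over 0 it was 7248 on kibble with median centring, and on meat 4321 with weights, 148 with the loop alone, 938 with median centring, 1504 with scaling and 889 with slide. For week 6 over 3 on kibble it was 593 with weights, 1 with the loop alone, 0 with median centring, 12 without a filter, 0 with the replicate block, 19 with scaling and 0 with slide. On meat it was 445 with Feature Extraction signals, 2317 with weights, 320 with the loop alone, 3014 with median centring, 378 without a dye term, 369 with scaling and 146 with slide. Leaving out 1 array at a time gave 27 to 238, 270 to 2517, 184 to 2911 and 52 to 220 for the diets by week, 505 to 3421 on meat and 2944 to 5129 on kibble for week 9 over 0, and 175 to 855 on meat and 0 to 70 on kibble for week 6 over 3.

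Red cell list calls for week 9 over 0 on meat (3) became 1 with Feature Extraction signals, 6 with weights, 0 with the loop alone, 1 with scaling and 1 with slide. Those on kibble (5) became 3 with the loop alone, 3 with the mean over probes and 3 with slide. At week 3 (6) they became 2 with median centring and 3 with the replicate block, and at week 6 (6) 2 with median centring and 3 with slide. For week 6 over 3 they became 1 on kibble with weights, and on meat 1 with weights and 2 with median centring. Leaving out 1 array gave 2 to 7 at week 3, 2 to 7 at week 6, 0 to 5 on meat and 2 to 6 on kibble for week 9 over 0. YBX3 on kibble was -0.050 with median centring.

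LOC609402 at week 9 over 0 lay between -2.89 and -2.33 on meat and between -4.40 and -3.57 on kibble over 15 alternatives, and meat over kibble at week 6 lay between -4.05 and -2.34. With Feature Extraction signals SLC4A1 was 0.26 for meat over kibble at week 9, -1.04 on meat and -1.43 on kibble for week 9 over 0, and 0.39 for their difference. With slide as a block the diet difference in the change from week 0 to 9 was -0.24 for EPB41 and 0.51 for GYPC. Under median centring r was -0.014 for LOC609402 with SLC4A1, -0.10 for SLC4A1 with EPB41, -0.36 for SLC4A1 with GYPC and 0.67 for EPB41 with GYPC, and with ratios not turned it was 0.84 for LOC609402 with EPB41. For week 9 over 0 on kibble 1824 probes were higher and 2962 lower, which became 1292 and 5956 with median centring and 3047 and 3130 with Feature Extraction signals. Residuals of arrays with the same replicate number had a median correlation of -0.011 (-0.77 to 0.62), against -0.029 for other numbers. Of 123 pairs with the same number, 43 were over 0.1. The ratios were not turned here, so a sample shared in opposite dyes would lower the correlation. Whether the numbers pair the samples was therefore not settled. A filter of 30 channels dropped SLC4A1. The cause of these shifts was not tested.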
